A study of Mus musculus with 26 samples.

Results

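The cardiac transcription factor set held 9 genes that direct formation of the heart, namely *Nkx2-5*, *Gata4*, *Gata5*, *Gata6*, *Hand1*, *Hand2*, *Mef2c*, *Myocd* and *Isl1*. They were chosen by symbol from the deposited expression table, in which each had 1 row among 52454 gene symbols. Their levels were followed across 10 RNA-seq libraries of a mouse study of the de novo DNA methyltransferases DNMT3A and DNMT3B. DNMT3A and DNMT3B place methyl groups on cytosines of CpG dinucleotides that carried none, and *Dnmt3a* KO removes the first of them.

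Each condition was represented by 1 library, so no value has a replicate SD, and genotypes and treatments were compared without a test. A pair of hearts and a pair of livers came from male C57BL6 embryos at E14.5, WT and *Dnmt3a* KO in each tissue, and the heart and liver of a genotype carry the same number in the labels, taken below as the embryo's, which the labels do not state. The strain is as labelled, and by the methods *Dnmt3a* WT and KO embryos came from crosses of heterozygous B6;129S4-Dnmt3a tm1Enl mice. There were 4 libraries of male C57BL6 mouse embryonic fibroblasts (MEFs, cells grown out of embryos and mixed in origin) from E14.5 embryos, taken at passage 1, WT and *Dnmt3a* KO, each treated for 2 days with DMSO as vehicle or with 10 µM GSK126. GSK126 inhibits EZH2, the enzyme of Polycomb repressive complex 2 (PRC2) that methylates histone H3 at lysine 27. The last 2 libraries were female 2i-MEFs, 1 *Dnmt3a* KO and 1 *Dnmt3b* KO, of F1 129X1/SvJ and MSM/Ms background, at E14.5 and passage 1. They were grown from chimeric embryos made with CRISPR-edited ES cells kept in 2i/LIF medium and were selected for the ES cell-derived fraction, so each traces to an ES cell line. No WT 2i-MEF library was analysed here, so the 2i-MEF comparison sets *Dnmt3a* KO against *Dnmt3b* KO.

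Levels are given as FPKM, the authors' fragments counted per length of transcript and per sequencing depth, which can be compared between genes. Ratios are log2 of FPKM + 1 in the first library over FPKM + 1 in the second, and a gene was called higher or lower past 2-fold on that scale. Adding 1 FPKM shrinks the ratio of a gene near 0, so folds of FPKM without it are also given with 95% intervals for counting error alone. The intervals rest on reads recovered from the FPKM values, 9172776 to 26212258 per library. *Gata5* and *Hand2* have 1 annotated transcript, which fixes their reads, while for the other members reads were placed on the longest transcript, which gives the narrowest interval. Where stated, the interval was also computed on the shortest transcript, which gives the widest.

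The *Dnmt3a* level did not follow every label. Hearts had 55.0 (WT) and 125 FPKM (KO label) and DMSO-treated MEFs 26.1 and 85.7 FPKM, whereas livers had 53.5 and 12.7 FPKM. A value per gene cannot show whether the deleted exons were absent, so these libraries are called labelled *Dnmt3a* KO below. The *Dnmt3a* KO 2i-MEFs had 4.21 FPKM of *Dnmt3a*, against 23.9 FPKM in their *Dnmt3b* KO counterpart, and *Dnmt3b* was 1.81 and 0.817 FPKM in the same order. The tissue labels matched their markers, as 10 cardiomyocyte markers summed to 55315 and 52034 FPKM in hearts and to at most 70.7 FPKM in the 8 other libraries.

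In the embryonic heart these factors act together at shared enhancers and regulate each other as well as contractile genes. NKX2-5 is a homeodomain protein of cardiac progenitors and myocytes, GATA4, GATA5 and GATA6 are zinc finger proteins that recognise GATA motifs, and HAND1 and HAND2 are basic helix-loop-helix proteins known from the left and right ventricle. MEF2C is a MADS-box factor of all muscle lineages, myocardin is a coactivator that acts through SRF at CArG boxes, and ISL1 is a LIM homeodomain protein of the second heart field that declines as cells differentiate. Several of them also act outside the heart, *Gata4* in liver endothelial and stellate cells, *Gata6* in endoderm and mesenchyme, *Hand2* and *Isl1* in limb mesenchyme and in neurons. Genes of this kind are classical targets of PRC2, and many carry CpG-rich promoters.

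The promoters of 4 members are shown because CpG dinucleotides are the substrate of the enzymes removed in this study. Each is the 200 bases that end 51 bases before the transcription start (RefSeq, GRCm38.p6, which is mm10), written 5′ to 3′ on the gene's strand with CpG in capitals.
*Nkx2-5*, chr17:26841616-26841815, minus strand: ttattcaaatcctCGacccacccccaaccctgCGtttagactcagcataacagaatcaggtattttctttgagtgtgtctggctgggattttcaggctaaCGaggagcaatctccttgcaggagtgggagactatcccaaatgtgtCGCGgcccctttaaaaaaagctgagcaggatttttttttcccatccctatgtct
*Gata5*, chr2:180334730-180334929, minus strand: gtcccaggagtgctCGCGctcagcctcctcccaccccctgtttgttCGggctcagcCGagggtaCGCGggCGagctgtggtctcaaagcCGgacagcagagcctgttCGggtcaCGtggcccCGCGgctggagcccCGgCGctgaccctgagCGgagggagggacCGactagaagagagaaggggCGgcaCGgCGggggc
*Hand2*, chr8:57320733-57320932, plus strand: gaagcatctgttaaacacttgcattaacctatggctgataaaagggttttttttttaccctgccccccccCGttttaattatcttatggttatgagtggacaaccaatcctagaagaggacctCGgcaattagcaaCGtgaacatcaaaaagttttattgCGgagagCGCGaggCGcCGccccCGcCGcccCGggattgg
*Isl1*, chr13:116309739-116309938, minus strand: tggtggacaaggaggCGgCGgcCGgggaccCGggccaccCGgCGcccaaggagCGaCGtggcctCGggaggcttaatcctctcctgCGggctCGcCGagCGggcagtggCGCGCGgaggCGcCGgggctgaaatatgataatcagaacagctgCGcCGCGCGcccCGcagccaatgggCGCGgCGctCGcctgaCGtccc
They held 5, 19, 11 and 28 CpG in that order, against a median of 4 over 32851 windows of the same kind. The *Isl1* window held more CpG than 97.0% of all windows and the *Gata5* window more than 89.1%, whereas *Nkx2-5* lay near the middle at 52.6%. *Mef2c* had 3 windows, one for each annotated start, with 1, 5 and 1 CpG. The windows of 5 of the 9 members were found in the table, and those of *Gata4*, *Gata6*, *Hand1* and *Myocd* are not shown.

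Motifs of the factors themselves were sought in the same windows on both strands. The E-box CANNTG, the core bound by HAND proteins among many others, occurred once or more in each of the 4 windows shown, as it did in 59.0% of all windows. The *Hand2* window also held a GATA motif (AGATAA, in 8.42% of all windows) and an NK2 motif (AAGTG, in 34.2%) that overlapped an E-box. The NK2 motif occurred in each of the 3 *Mef2c* windows, and a TATA box (TATAAA, in 9.14%) in 1 of them. No window of these 5 members held the MEF2 motif or a CArG box, which occurred in 0.368% and 1.16% of all windows. Methylation of these windows was not analysed here.

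*Nkx2-5* (chr17:26838664-26841565, minus strand) was the highest member in hearts and the most restricted one. Its level was 179 FPKM in WT heart and 182 FPKM in the heart labelled *Dnmt3a* KO. It was listed at 0 FPKM in WT liver, in both DMSO-treated MEFs and in *Dnmt3b* KO 2i-MEFs, where the 3 reads that a count of 0 allows correspond to 0.0864, 0.126, 0.0884 and 0.247 FPKM. The remaining 4 libraries had 0.0691 to 0.195 FPKM, which is 1 to 5 reads. Nothing outside the heart therefore reached 1 FPKM, and the lower heart stood 919-fold above the highest other library.

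*Gata4* (chr14:63198922-63271692, minus strand), a partner of NKX2-5 at many cardiac enhancers, was the next highest in hearts, at 120 and 114 FPKM. Both livers held it at 14.8 FPKM. In MEFs it was 0.0252 FPKM in WT with DMSO, which is at most 1 read, 0.281 FPKM in WT with GSK126, and 0.895 and 1.97 FPKM in the MEFs labelled *Dnmt3a* KO with DMSO and with GSK126. The 2i-MEFs had 0.946 FPKM (*Dnmt3a* KO) and 0.750 FPKM (*Dnmt3b* KO). The order was thus heart, liver and MEFs, and the 2 livers differed by less than counting error.

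*Gata5* (chr2:180325133-180334699, minus strand), known from endocardial and endodermal cells, was the lowest of the GATA members in hearts, at 9.31 and 8.42 FPKM. Livers had 1.09 and 1.11 FPKM. It was listed at 0 in both WT MEFs and both 2i-MEFs, and the MEFs labelled *Dnmt3a* KO had 0.0634 FPKM with DMSO and 0.154 FPKM with GSK126, from 5 and 10 reads. The 3 reads that a count of 0 allows correspond to at most 0.106 FPKM of *Gata5* in those 4 libraries, and the upper end of the Poisson interval to at most 0.131 FPKM. *Gata6*, on chromosome 18, had 42.4 and 42.3 FPKM in hearts but, unlike the other GATA members, was present above 5 FPKM in all 10 libraries. Livers held 5.78 and 6.08 FPKM, MEFs 5.16 to 8.45 FPKM, and 2i-MEFs 5.99 and 7.83 FPKM.

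The paired HAND genes differed most outside the heart. *Hand1* (chr11:57828705-57832818, minus strand) had 30.4 and 22.4 FPKM in hearts, 1.98 FPKM in WT liver, 0.435 FPKM in the liver labelled *Dnmt3a* KO, 0.0643 to 1.01 FPKM in MEFs and 0 in both 2i-MEFs, where 3 reads on the longest transcript correspond to 0.161 and 0.192 FPKM and the Poisson upper ends to 0.198 and 0.236 FPKM. *Hand2* (chr8:57320983-57324633, plus strand) had 70.1 and 74.9 FPKM in hearts, 6.65 and 7.22 FPKM in livers, 6.19 to 9.23 FPKM in MEFs, and 1.83 and 4.26 FPKM in 2i-MEFs. *Hand2* exceeded *Hand1* in every library.

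*Mef2c* (chr13:83504034-83667080, plus strand) was present above 6 FPKM in all 10 libraries. Hearts had 46.8 and 44.4 FPKM, WT liver 14.9 FPKM and the liver labelled *Dnmt3a* KO 6.70 FPKM. In MEFs it was 6.16 FPKM in WT with DMSO, 11.3 FPKM in WT with GSK126, 13.4 FPKM in labelled *Dnmt3a* KO with DMSO and 10.2 FPKM in labelled *Dnmt3a* KO with GSK126, and 2i-MEFs had 7.46 and 6.01 FPKM. The lower heart stood only 2.98-fold above the highest other library, which was WT liver.

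*Myocd* (chr11:65176561-65269989, minus strand) was at most 1.59 FPKM outside the heart. Hearts had 20.4 and 15.1 FPKM, livers 0.0800 and 0.0920 FPKM, and WT MEFs 0.0579 FPKM with DMSO and 0.130 FPKM with GSK126. The MEFs labelled *Dnmt3a* KO had 1.59 FPKM with DMSO and 0.565 FPKM with GSK126, and 2i-MEFs had 1.17 and 0.777 FPKM. *Myocd* was therefore above 1 FPKM in 2 libraries outside the heart, both of *Dnmt3a* KO label.

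*Isl1* (chr13:116298281-116309689, minus strand) was the exception, as its highest level was in WT MEFs and not in hearts. WT MEFs had 5.78 FPKM with DMSO and 5.70 FPKM with GSK126, whereas the MEFs labelled *Dnmt3a* KO had 1.16 and 1.19 FPKM. Hearts had 2.49 FPKM in WT and 1.32 FPKM in labelled *Dnmt3a* KO. Livers had 0.394 and 0.802 FPKM, and 2i-MEFs 0.770 FPKM (*Dnmt3a* KO) and 0.141 FPKM (*Dnmt3b* KO).

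**Figure D1:**
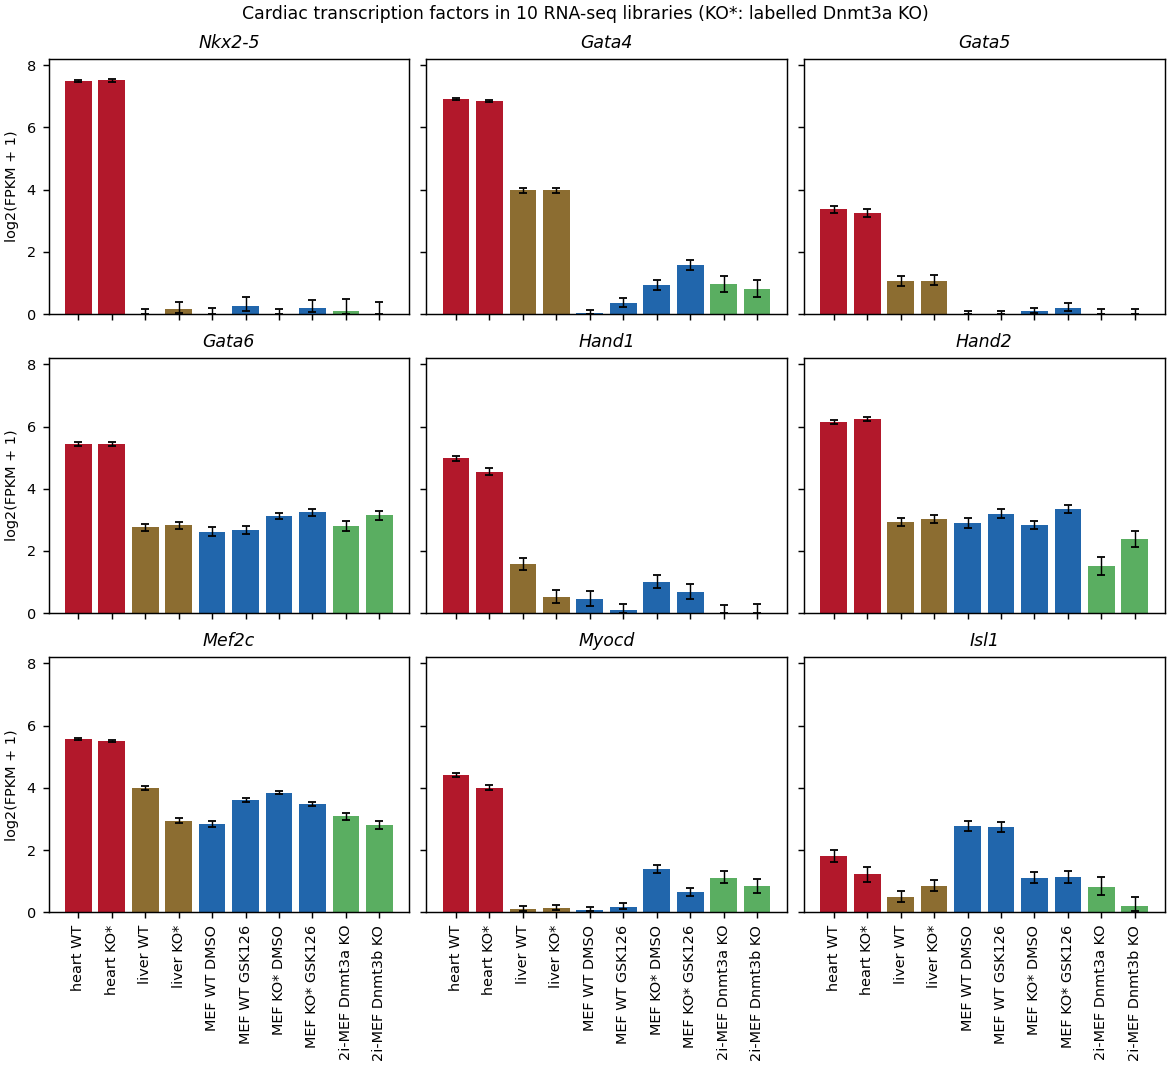
Level of each of the 9 members in the 10 libraries, drawn as log2(FPKM + 1), 1 bar per library, with error bars for the 95% Poisson interval of the reads. Both hearts stand above the 8 other libraries for every member except *Isl1*, whose highest bars are the WT MEFs at 5.78 and 5.70 FPKM.

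The order of the members in hearts was the same in both genotypes, running *Nkx2-5*, *Gata4*, *Hand2*, *Mef2c*, *Gata6*, *Hand1*, *Myocd*, *Gata5* and *Isl1*. Neighbouring intervals on the longest transcript did not overlap in WT heart, but between *Mef2c* at 46.8 FPKM (45.6 to 48.1) and *Gata6* at 42.4 FPKM (40.8 to 43.9) the gap was small, and in the heart labelled *Dnmt3a* KO these intervals (43.1 to 45.8 and 40.6 to 44.1) overlapped. Summed over the members, hearts had 521 and 505 FPKM, livers 45.7 and 37.4 FPKM, MEFs 24.0 to 32.5 FPKM and 2i-MEFs 18.2 and 19.8 FPKM. In MEFs and 2i-MEFs most of this sum came from *Mef2c*, *Hand2* and *Gata6*. For 8 of the 9 members both hearts lay above all 8 other libraries, an arrangement found in 14.4% of the 16896 genes with at least 1 FPKM in at least 1 library.

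The first comparison asked how far the factors set the heart apart from the liver at the same stage. In WT embryos 9 of 9 members were higher in heart and 0 were lower, where 20.6% of all genes tested were higher and 21.1% lower. The median log2 ratio of the members was 2.93, against -0.09 over all genes tested. *Myocd* was 256-fold higher (143 to 550), *Hand1* 15.3-fold (12.3 to 19.2) and *Hand2* 10.5-fold (9.46 to 11.8). *Nkx2-5* was at least 2074-fold higher when its 0 in liver was replaced by the 3 reads that a count of 0 allows, and the lower end of the counting interval was 1686.5. The GATA genes lay close together, at 8.07-fold for *Gata4* (7.60 to 8.58), 8.53-fold for *Gata5* (6.80 to 10.8) and 7.33-fold for *Gata6* (6.69 to 8.05). *Mef2c* had the smallest fold, 3.13 (2.99 to 3.29). In a bulk library, fewer cells of a type and less RNA per cell cannot be told apart.

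Between the heart and liver labelled *Dnmt3a* KO, 8 of 9 members were higher and 0 lower, where 23.7% of all genes were higher and 20% lower. The median log2 ratio was 2.87, against 0.00 over all genes. *Isl1* was the member that did not pass, at a log2 ratio of 0.36 and a fold of 1.65 (1.07 to 2.50). *Hand1* stood at 51.4-fold (32.8 to 86.4) and *Mef2c* at 6.63-fold (6.20 to 7.10), and for both genes the fold between genotypes was larger in liver than in heart.

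Heart was also compared with liver over both embryos with limma on log2(FPKM + 1), with that number as the embryo and as a block, a test added after the data were seen. By this fit 8 of 9 members were higher and 0 lower at an adjusted p under 0.05, where 29.1% of all genes were higher and 31.2% lower, and without the block the member counts were the same, where 30.1% were higher and 31.8% lower. The difference was largest for *Nkx2-5*, at 7.42 ± 0.15 (SE) with an adjusted p of 4.93e-05, followed by *Myocd* at 4.10 ± 0.21 (0.000189). *Mef2c* was at 2.07 ± 0.26 (0.00223), and *Isl1* did not pass at 0.84 ± 0.32 (0.0748). Since the embryos also differ in genotype, the error includes any genotype effect on the tissue difference.

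Hearts were also compared with DMSO-treated MEFs, the cultured cells of the series. In WT, 8 of 9 members were higher in heart and 0 lower, where 17.5% of all genes were higher and 18.3% lower, with a median log2 ratio of 3.37 against -0.02. Between the labelled *Dnmt3a* KO libraries the counts were again 8 and 0, where 17.1% of all genes were higher and 20.8% lower, with a median of 3.15 against -0.06. *Isl1* was the exception in both. In WT its log2 ratio was -0.96, with 2.49 FPKM in heart against 5.78 FPKM in MEFs, just short of 2-fold on this scale. Without the added 1 FPKM it was 2.32-fold lower in heart (1.85 to 2.95), and with a pseudocount of 0.1 FPKM it was called lower at -1.18. Between labelled *Dnmt3a* KO libraries its log2 ratio was 0.10. *Myocd* was 353-fold higher in WT heart than in WT MEFs (155 to 1114) and 9.46-fold higher between the labelled *Dnmt3a* KO libraries (8.12 to 11). *Nkx2-5* was at least 1423-fold and at least 2057-fold higher in these comparisons by the same 3 reads, with lower ends of the counting interval of 1157 and 1672. Each heart and each DMSO-treated MEF library enters several comparisons, so their ratios share libraries.

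**Figure D2:**
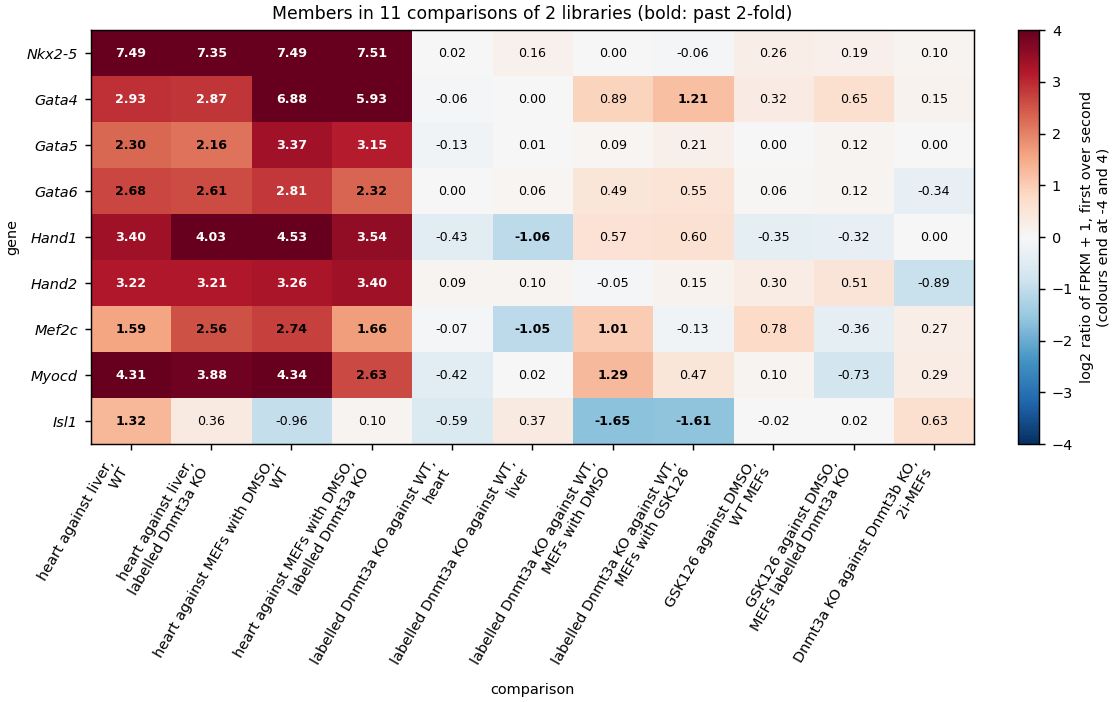
Log2 ratio of FPKM + 1 for each member (rows) in the 11 comparisons (columns), with colours ending at 4 in either direction and bold print past 2-fold. The 4 heart comparisons are past 2-fold for every member but *Isl1*, which passes in 1 of them, and the genotype and treatment comparisons hold 7 values past 2-fold, in *Hand1*, *Mef2c*, *Myocd*, *Isl1* and *Gata4*.

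Genes that these factors are known to switch on were also listed. The list holds cardiomyocyte genes and was chosen with earlier results known. A higher level in heart was thus fixed in advance and does not test the factors. All 30 cardiomyocyte target genes were higher in heart in each of the 4 heart comparisons, with median log2 ratios of 7.10 and 8.27 against liver and 8.78 and 8.64 against MEFs. Over all genes tested, 17.1% to 23.7% were higher in these comparisons. *Myl2*, the ventricular myosin light chain, had 0.493 FPKM in WT liver and was among the largest of these differences. Of the 32 other cardiac transcription factors and cofactors found, 18 were higher and 3 lower in WT heart than in WT liver, and 12 were higher and 4 lower than in WT MEFs. Over all genes tested, 20.6% were higher and 21.1% lower than in WT liver, and 17.5% and 18.3% than in WT MEFs. *Tbx5*, a T-box partner of NKX2-5 and GATA4, had 14.8 and 20.4 FPKM in hearts, at most 0.501 FPKM in livers and 3.64 to 4.34 FPKM in MEFs. *Tbx20* had 32.3 and 40.2 FPKM in hearts and at most 1.95 FPKM elsewhere.

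Smooth muscle genes of SRF and myocardin did not share the pattern of *Myocd*. Of 12 such genes 8 were higher and 0 lower in WT heart than in WT liver, but 3 were higher and 6 lower than in WT MEFs, where *Myocd* itself was at 0.0579 FPKM. Of the 23 signals and receptors that act on the cardiac factors, 14 were higher and 3 lower in WT heart than in WT liver, led by *Bmp7* (1 lower after centring), and 5 were higher and 7 lower than in WT MEFs. Among 12 other GATA, NK2 and MEF2 family genes, 2 were higher and 1 lower in heart than in liver, the higher ones being *Mef2a* and *Mef2d* and the lower one *Gata1*, the erythroid GATA factor. The remaining 9 family relatives did not pass 2-fold in that comparison. Only 5 of the 12 reached 1 FPKM in either library, and the others could not pass on this scale. Of 12 PRC2 and DNA methylation genes 1 was higher and 5 were lower in WT heart than in WT liver, the lower ones led by *Uhrf1* and *Dnmt3b*. Beside these list counts stand the shares of all genes, 20.6% higher and 21.1% lower against WT liver and 17.5% and 18.3% against WT MEFs. No list count was tested against these shares.

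**Figure D3:**
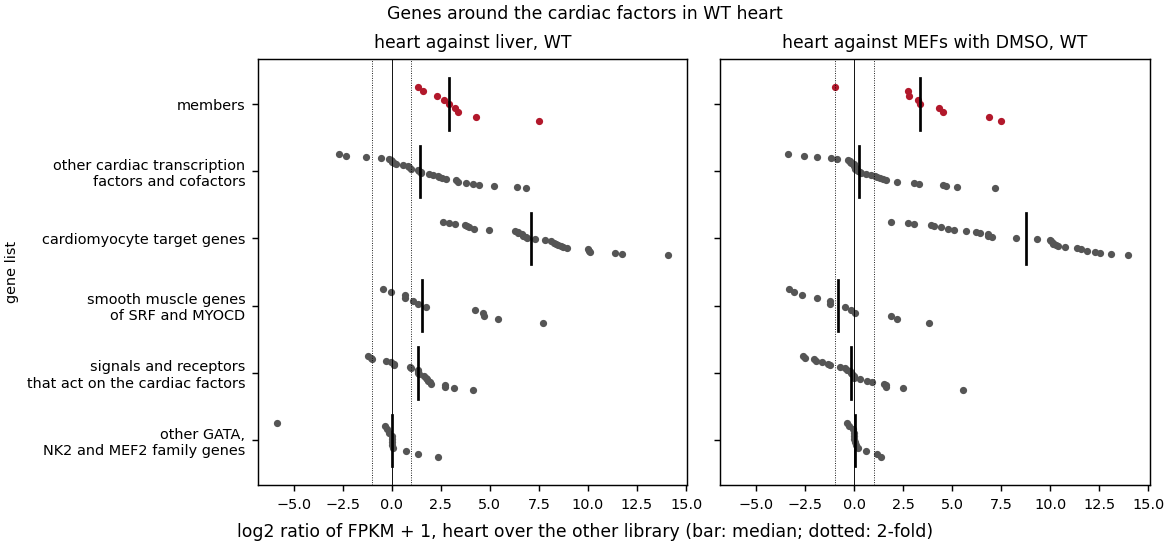
Log2 ratios of FPKM + 1 of single genes (dots) and their median (bar) for the members and 5 other gene lists in WT heart against WT liver (left) and against WT MEFs with DMSO (right), with dotted lines at 2-fold. Cardiomyocyte target genes lie highest in the heart comparisons, with a median of 7.10 in WT heart against liver where the members had 2.93.

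For each member the 3 genes with the most similar profile over the 10 libraries were taken, by the root mean square (RMS) difference of centred log2(FPKM + 1) values, among 12665 genes with at least 5 FPKM in at least 1 library. *Nkx2-5* was most like *Adprhl1* (RMS 0.179), *Gm29015* (0.228) and *Tcap* (0.246), and *Tcap* encodes a Z-disc protein of striated muscle. *Gata4* was most like *Tie1* (0.430), *Pecam1* (0.467) and *Mmrn2* (0.552), all expressed by endothelial cells, but 0 of these 3 were among its closest genes with a pseudocount of 0.1 FPKM. By the main measure the closest gene was *Ccm2l* for *Gata5*, *Nlrp10* for *Gata6*, *Tmem163* for *Hand1*, *Adssl1* for *Hand2*, *Cdip1* for *Mef2c*, *Gja3* for *Myocd* and *Gdf7* for *Isl1*. The match of *Isl1* was the loosest of these, at an RMS of 0.451. Of the 27 genes named by this rule, 10 were named again with a pseudocount of 0.1 FPKM, including 0 of 3 for *Gata6* and 0 of 3 for *Isl1*, whose matches were also lost with a floor of 1 FPKM. *Nlrp10* resembled *Gata6* in shape only, at 5.13 FPKM in WT heart and at most 0.228 FPKM outside the heart.

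Rows of other genes overlap 3 members. *AV026068*, a noncoding RNA on the opposite strand that overlaps *Hand2* by 3251 bases, had 43.1 and 41.1 FPKM in hearts and 1.49 to 3.37 FPKM elsewhere, high in the same libraries as *Hand2*. *Gata5os*, antisense to *Gata5*, had 0.428 and 0.614 FPKM in hearts, and *1010001N08Rik*, which overlaps *Gata6* by 58 bases, had 4.53 and 5.05 FPKM. The libraries were made with a stranded kit, but whether strand was used in counting is not given in the sources used here, so it is not known whether the reads of each pair were kept apart.

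The tissue part of the study concerned DNMT3A, and in hearts the members hardly differed between the libraries labelled *Dnmt3a* KO and WT. Of the 9 members 0 were higher and 0 lower past 2-fold, where 2.18% of all genes were higher and 1.85% lower. The median log2 ratio was -0.07, against 0.00 over all genes. *Nkx2-5* had a fold of 1.01 (0.971 to 1.06), *Gata4* 0.956 (0.923 to 0.990), *Hand2* 1.07 (1.01 to 1.13) and *Mef2c* 0.949 (0.911 to 0.989). The larger differences were in *Hand1* at 0.735 (0.663 to 0.815), *Myocd* at 0.737 (0.685 to 0.794) and *Isl1* at 0.531 (0.368 to 0.753), each lower in the library labelled *Dnmt3a* KO. On the shortest transcript the intervals of *Hand1* (0.511 to 1.04), *Myocd* (0.484 to 1.09) and *Isl1* (0.206 to 1.32) included 1. None of the 30 cardiomyocyte target genes passed 2-fold, nor did any of the 12 smooth muscle genes, and among the other cardiac factors only *Tbx3* did, at 1.62 FPKM in WT and 5.24 FPKM in labelled *Dnmt3a* KO. Beside these values, 4 of 8 hepatocyte markers were lower in the heart labelled *Dnmt3a* KO, with a sum of 9.05 against 37.5 FPKM, and the erythroid sum was 24294 against 35232 FPKM. The part of these markers in the member values was not tested.

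In livers, where 6 of the 9 members reached 1 FPKM in at least 1 library and could pass, 2 were lower in the library labelled *Dnmt3a* KO and 0 were higher, where 2.3% of all genes were lower and 1.39% higher. The median log2 ratio was 0.02, against -0.08 over all genes. *Hand1* was 4.55-fold lower (2.78 to 8) and *Mef2c* 2.23-fold lower (2.07 to 2.40), with log2 ratios of -1.06 and -1.05. Centred on the median of all genes these became -0.98 and -0.97, just short of 2-fold. On the shortest transcript the interval of the KO over WT fold still lay below 1 for *Mef2c* (0.263 to 0.749) but not for *Hand1* (0.0263 to 1.28). The other members lay near WT, with *Gata4* at 14.8 FPKM in both livers and *Gata5*, *Gata6* and *Hand2* at log2 ratios of 0.01, 0.06 and 0.10. *Isl1* had a fold of 2.04 (1.22 to 3.48) in the other direction from levels below 1 FPKM.

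Muscle markers moved with *Mef2c* and *Hand1* in these livers. Of 10 skeletal muscle markers 6 were lower in the liver labelled *Dnmt3a* KO and 0 higher, and their sum was 62.0 FPKM in WT and 2.64 FPKM in labelled *Dnmt3a* KO, where 3 were at 0. *Myod1*, the myogenic regulator, was 2.55 FPKM in WT liver and 0 in the other, *Myog* 6.31 and 0.150 FPKM, and embryonic myosin *Myh3* 9.96 and 0.248 FPKM. The 10 cardiomyocyte markers summed to 70.7 and 23.5 FPKM, with *Actc1* at 48.5 and 3.97 FPKM but *Myl2* at 0.493 and 4.91 FPKM. Of the 30 cardiomyocyte target genes 7 were lower and 2 higher, and 2 of 9 fibroblast markers were lower, with sums of 525 FPKM in WT and 277 FPKM in labelled *Dnmt3a* KO. The hepatocyte sum was 18888 FPKM in WT and 11671 FPKM in labelled *Dnmt3a* KO, and the erythroid sum 119425 and 161321 FPKM. Their part in the *Mef2c* and *Hand1* differences was not tested.

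**Figure D4:**
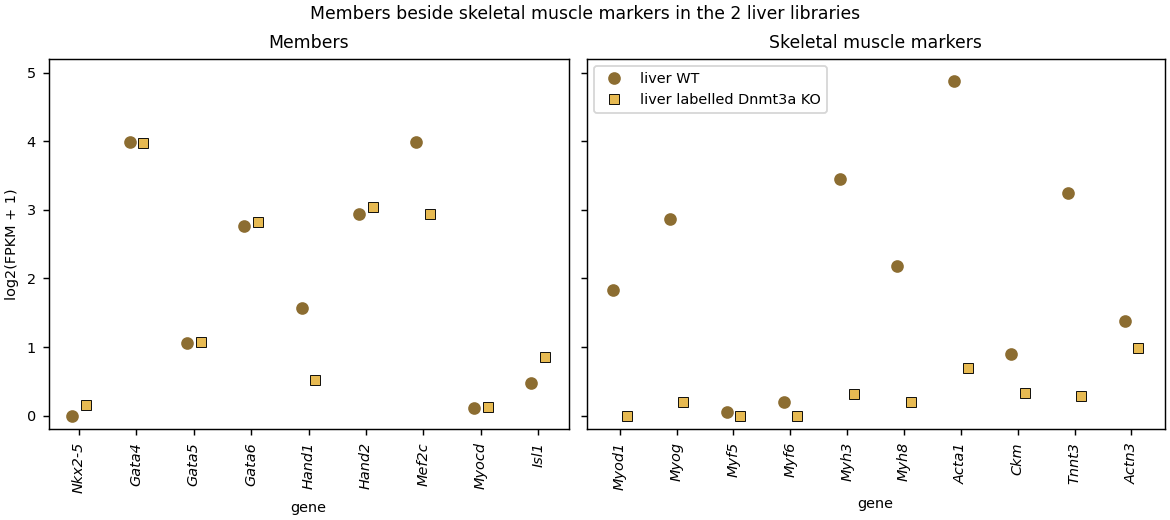
Level in livers, as log2(FPKM + 1), of the 9 members (left) and of 10 skeletal muscle markers (right), with circles for WT and squares for labelled *Dnmt3a* KO. Every muscle marker and, past 2-fold, the members *Hand1* and *Mef2c* lie lower in the liver labelled *Dnmt3a* KO, while *Gata4*, *Gata5*, *Gata6* and *Hand2* lie close together.

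In DMSO-treated MEFs, where 6 of the 9 members reached 1 FPKM, 2 were higher in labelled *Dnmt3a* KO than in WT and 1 was lower, where 4.24% of all genes were higher and 2.02% lower. The median log2 ratio was 0.49, against 0.04 over all genes. *Myocd* was higher at 1.59 FPKM against 0.0579 FPKM, a 27.5-fold difference (11.9 to 87.8), and *Mef2c* at 13.4 against 6.16 FPKM, 2.17-fold (1.99 to 2.37). After centring *Mef2c* was at a log2 ratio of 0.98, and with a pseudocount of 0.1 FPKM 4 members were higher. *Myocd* averaged less than 1 FPKM over the pair, and with a mean of at least 1 FPKM required its call was lost. On the shortest transcript the lower bounds were 1.01 for *Myocd* and 1.152 for *Mef2c*. *Isl1* was 4.96-fold lower (3.79 to 6.60), at 1.16 against 5.78 FPKM, and the interval of its KO over WT fold on the shortest transcript was 0.101 to 0.409.

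Several members at low levels lay higher in these MEFs without passing 2-fold on the scale of FPKM + 1. *Gata4* was 0.895 FPKM in labelled *Dnmt3a* KO and 0.0252 FPKM in WT, from at most 73 reads and 1 read, a 35.5-fold difference with a counting interval from 8.91 to 2051. *Hand1* was 2.82-fold higher (1.43 to 6.03) and *Gata6* 1.49-fold (1.30 to 1.70), whose intervals on the shortest transcript (0.278 to 138 and 0.878 to 2.66) included 1. *Hand2* was the steadiest, at 6.19 and 6.44 FPKM, a log2 ratio of -0.05. *Nkx2-5* was at 0 in both.

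Under GSK126 the called members were *Gata4* and *Isl1*. With the inhibitor 1 of 9, of which 5 reached 1 FPKM, was higher in labelled *Dnmt3a* KO MEFs and 1 lower, where 2.88% of all genes were higher and 2.95% lower, with a median log2 ratio of 0.21 against 0.01. With a pseudocount of 0.1 FPKM 4 members were higher. *Gata4* was higher on both scales, at 1.97 against 0.281 FPKM, 7.01-fold (4.31 to 12.7, and 1.85 to 69.4 on the shortest transcript). *Isl1* was lower again, at 1.19 against 5.70 FPKM, 4.79-fold (3.60 to 6.51). Its KO over WT fold on the shortest transcript ran from 0.0954 to 0.430, so *Isl1* was lower in labelled *Dnmt3a* KO under both treatments, which cannot be taken as independent, since MEFs of the same genotype were treated with either agent. *Mef2c* did not differ past 2-fold here, at 10.2 against 11.3 FPKM (fold 0.908, 0.841 to 0.981). *Myocd* had a fold of 4.35 (2.39 to 9.20) from levels below 1 FPKM, *Hand1* 9.50 (2.47 to 88.3), and on the shortest transcript both lower bounds were 0.172. *Gata5* was at 10 reads against 0.

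**Figure D5:**
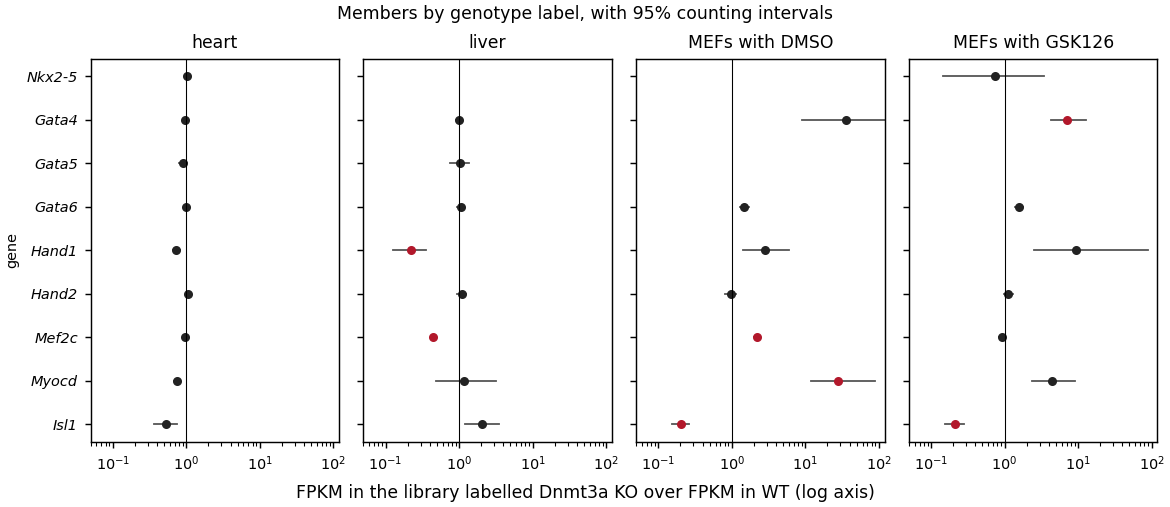
Fold of FPKM in labelled *Dnmt3a* KO over WT for each member in hearts, livers and the 2 MEF treatments, on a log axis that ends at 0.05 and 120, with 95% counting intervals and red points past 2-fold in FPKM + 1. *Isl1* lies near 0.2 in both MEF panels, the upper end of the *Gata4* interval in DMSO-treated MEFs runs off the axis, and genes at 0 in 1 library are not drawn.

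Markers of other cell types differed between the MEFs as well. Of 8 epicardial and mesothelial markers 5 were higher and 1 lower in labelled *Dnmt3a* KO in both treatments, with sums of 80.3 FPKM in WT and 150 FPKM in labelled *Dnmt3a* KO under DMSO, and of 91.1 and 362 FPKM under GSK126. *Upk1b*, a mesothelial uroplakin, was 7.30 and 30.3 FPKM under DMSO and 9.38 and 92.5 FPKM under GSK126, and *Wt1* was 1.03 and 5.42 FPKM under DMSO. Fibroblast markers summed to 12228 FPKM in WT and 9599 FPKM in labelled *Dnmt3a* KO under DMSO and to 9188 and 6269 FPKM under GSK126. Skeletal muscle markers summed to 22.4 and 59.8 FPKM under DMSO, of which *Acta1* made up 15.5 and 40.5 FPKM, while *Myod1* was at most 0.134 FPKM in any MEF library. Beside *Isl1*, the 9 sympathetic and autonomic neuron markers summed to 19.7 and 13.1 FPKM under DMSO and to 17.6 and 22.1 FPKM under GSK126, with 0 lower past 2-fold in either and *Prph* higher under GSK126, at 2.503 and 8.497 FPKM. *Stmn2* was 17.9 and 11.2 FPKM under DMSO and 14.9 and 13.5 FPKM under GSK126. How far these markers account for the member values was not tested.

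The other gene lists are set beside the 4.24% of all genes that were higher and the 2.02% that were lower under DMSO. Of the 32 other cardiac factors 1 was higher and 3 were lower, with a list median of 0.00 on the log2 scale, *Tbx1* at 0.988 FPKM in WT and 4.73 FPKM in labelled *Dnmt3a* KO, and *Shox2*, *Hopx* and *Tbx18* lower. *Shox2*, known from the sinus node and the limb, was 39.4 and 8.72 FPKM. Of 30 cardiomyocyte target genes 3 were higher under DMSO, led by *Tnnt2* at 1.49 and 6.42 FPKM, and 2 under GSK126, and with a pseudocount of 0.1 FPKM these counts became 7 and 5. Of the 23 signals and receptors *Fgfr2*, a fibroblast growth factor receptor, was higher under DMSO at 33.7 and 136 FPKM, as was *Wnt11* at 5.51 and 12.1 FPKM. Among 12 smooth muscle genes *Mylk* passed 2-fold under DMSO, at 6.59 and 15.5 FPKM. The list had a median log2 ratio of 0.43, against 0.04 over all genes, with *Cnn1* at 0.96 and *Smtn* at 0.90, and summed to 3698 FPKM in WT and 4717 FPKM in labelled *Dnmt3a* KO. Under GSK126 none was higher and *Myh11* was lower, with a list median of -0.01. *Gata2*, another GATA gene, was 12.6 and 44.7 FPKM under DMSO.

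GSK126 itself was compared with DMSO within each genotype, to ask what inhibition of PRC2 did to the members. In WT MEFs 0 of 9 were higher and 0 lower past 2-fold (2 and 1 in each genotype with a pseudocount of 0.1 FPKM), where 2.17% of all genes were higher and 1.59% lower, with a median log2 ratio of 0.10 against 0.00. Of the 9 members 4 reached 1 FPKM in at least 1 of these WT libraries, and the others could not pass 2-fold on this scale, whereas the background holds only genes that reached 1 FPKM. In the MEFs labelled *Dnmt3a* KO the counts were also 0 and 0, with 7 members at 1 FPKM or more, where 2.01% were higher and 3.25% lower, with a median of 0.12 against -0.04. *Hand2*, whose reads are fixed by its single transcript, was 1.27-fold higher with GSK126 in WT (1.08 to 1.504) and 1.49-fold in labelled *Dnmt3a* KO (1.29 to 1.73), so both intervals lay above 1 without reaching 2-fold. *Gata4* was 2.201-fold higher in labelled *Dnmt3a* KO (1.65 to 2.98, and 0.964 to 5.82 on the shortest transcript), from 0.895 to 1.97 FPKM. In WT *Gata4* was 11.1-fold higher (2.47 to 660), from 0.0252 to 0.281 FPKM, with a lower bound of 0.174 on the shortest transcript. *Hand1* had folds of 0.179 in WT (0.0182 to 0.774) and 0.603 in labelled *Dnmt3a* KO (0.346 to 1.03). Both its intervals on the shortest transcript included 1. *Nkx2-5* went from 0 reads to 5 in WT and to 4 in labelled *Dnmt3a* KO, with intervals that included 1. *Isl1* was 5.78 and 5.70 FPKM in WT and 1.16 and 1.19 FPKM in labelled *Dnmt3a* KO.

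*Mef2c* lay in opposite directions with the inhibitor in the 2 genotypes. It was 1.83-fold higher in WT (1.67 to 2.01) and had a fold of 0.764 in labelled *Dnmt3a* KO (0.713 to 0.819), so that the genotypes, apart under DMSO, had similar levels under GSK126. The intervals on the shortest transcript (0.932 to 3.60 and 0.472 to 1.27) both included 1. *Myocd* had a fold of 0.355 with GSK126 in labelled *Dnmt3a* KO (0.261 to 0.477, and 0.0351 to 1.82 on the shortest transcript). In the same pair 4 of 8 mesothelial markers were higher, and their part in these values was not tested. None of the 12 PRC2 and DNA methylation genes passed 2-fold with GSK126 in either genotype, and *Ezh2* was 18.8 and 11.3 FPKM in WT and 17.3 and 18.7 FPKM in labelled *Dnmt3a* KO.

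Between *Dnmt3a* KO and *Dnmt3b* KO 2i-MEFs 0 of 9 members were higher and 0 lower past 2-fold, where 5.52% of all genes were higher and 3.49% lower. The median log2 ratio was 0.10, against 0.03 over all genes. Only 4 of the 9 members reached 1 FPKM in either library, and the other 5 could not pass 2-fold on this scale. *Hand2* came closest, 2.33-fold lower in *Dnmt3a* KO by FPKM (1.59 to 3.44) with a log2 ratio of -0.89 on the FPKM + 1 scale. *Isl1* was 5.45-fold higher (1.57 to 28.1) from at most 19 and 3 reads, and its interval on the shortest transcript (0.202 to 132) included 1. *Nkx2-5* was at 1 read and 0, and *Hand1* and *Gata5* were at 0 in both libraries. These 2 libraries were the shallowest of the series, at 10925724 and 9172776 reads.

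Of the 32 other cardiac factors 2 were higher and 2 lower in *Dnmt3a* KO 2i-MEFs. *Tbx1* was 5.51 FPKM (*Dnmt3a* KO) and 0.484 FPKM (*Dnmt3b* KO), and *Hopx* was also higher, whereas *Shox2* at 5.17 and 26.0 FPKM and *Tbx3* at 2.09 and 6.23 FPKM were lower. Of 12 smooth muscle genes *Myh11* and *Cnn1* were lower, *Cnn1* at 100 and 253 FPKM, while *Myocd* was 1.17 and 0.777 FPKM. Of the 30 cardiomyocyte target genes 0 were higher and 2 lower, *Ankrd1* at 9.71 and 75.0 FPKM and *Tnni1* at 0.167 and 1.35 FPKM. Over all genes tested, 5.52% were higher and 3.49% lower. *Bmp4*, a signal upstream of several members, was 82.4 and 33.3 FPKM. Fibroblast markers summed to 20804 and 19599 FPKM, and *Wt1* was lower at 1.57 and 6.22 FPKM. The part of such cell types in the member values was not tested.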

How the data were processed

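Poly-A RNA libraries were sequenced as 75-base single reads. Per the submitters' processing notes the authors used cutadapt 1.9.1, TopHat2 2.1.0, Bowtie2 2.2.5 and Cufflinks 2.2.1 on mm10 (the methods name partly other versions), with a GENCODE annotation, and they deposited 1 table of FPKM values with 52609 rows. Rows that shared a symbol were added up. The 9 members, the gene lists and the tests were chosen with earlier results of these data known. Genes with at least 1 FPKM in at least 1 of the 2 libraries compared formed the background, and calls were made past 2-fold on log2(FPKM + 1). Named genes were the members, *Dnmt3a* and *Dnmt3b*, the 3 closest profiles of each member, overlapping rows, and up to 3 genes per list and direction with the largest ratios; *Tbx5*, *Tbx20*, *Ezh2* and some markers (*Myod1*, *Actc1*, *Wt1*, *Stmn2*) were named after their values were seen.

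Depth was recovered from 6452 genes with 1 transcript in the GENCODE M21 annotation, assuming fragments of 200 bases, and in each library 97.9% to 99.1% of values under 10 reads lay within 0.1 of a whole read, where an even spread would give 20%. Levels have exact Poisson intervals and folds Clopper-Pearson intervals at 95%, for counting error only. Heart and liver were also compared with limma 3.58.1 (R 4.3.3) with the number in the labels, taken as the embryo, as a block, with Benjamini-Hochberg adjustment over 15146 genes. Both scripts were tested on simulated data. Alternatives were a pseudocount of 0.1 FPKM, centring on the median gene, a threshold of 1.5-fold, a mean of at least 1 FPKM and the highest row of each symbol. The 16 methylation samples were not used here. Python 3.11.15, numpy 2.4.6, pandas 2.3.3, scipy 1.17.1 and matplotlib 3.10.9 were used.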

Additional observations from a re-analysis of the deposited data

Results flagged for a closer look

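*Mef2c* differed in its genotype ratio between the MEF treatments. The log2 ratio of labelled *Dnmt3a* KO over WT was 1.01 under DMSO and -0.13 under GSK126, a difference of -1.13, with both counting intervals on the longest transcript excluding 1 and in opposite directions. Read from the same 4 libraries, the GSK126 ratio was 0.78 in WT and -0.36 in labelled *Dnmt3a* KO, again a difference of -1.13. With 1 library per condition the difference was not tested, and on the shortest transcript the intervals of the 2 GSK126 ratios and of the genotype ratio under GSK126 included 1.

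*Isl1* had a genotype log2 ratio of -0.59 in heart and 0.37 in liver, a difference of 0.959. This difference was not tested, and on the shortest transcript both intervals included 1.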

How the results depend on the processing

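The number taken as the embryo, used as a replicate block, changed no call of a member between heart and liver, with 8 higher and 0 lower with and without it, and the genotype and treatment comparisons share no such number and were not paired. Of the 22 member counts (11 comparisons, higher and lower), 12 stayed within 1.5 times with a pseudocount of 0.1 FPKM, 20 after centring, 14 at 1.5-fold, 21 with a mean of at least 1 FPKM and 22 with the highest row of each symbol, and no member called past 2-fold reversed its direction with the other pseudocount or after centring. With a pseudocount of 0.1 FPKM, which enlarges ratios of genes near 0, the members higher in labelled *Dnmt3a* KO became 4 in DMSO-treated MEFs, 4 in GSK126-treated MEFs and 1 in liver, GSK126 gave 2 higher and 1 lower in each genotype, 2i-MEFs gave 1 higher and 1 lower, and 1 was lower in WT heart than in WT MEFs. After centring, 0 members were lower in liver, where *Hand1* was at -0.98 and *Mef2c* at -0.97, and 1 was higher in DMSO-treated MEFs, where *Mef2c* was at 0.98, so these calls lie at the threshold. At 1.5-fold 1 member was lower in WT heart than in WT MEFs and 1 was lower in the heart labelled *Dnmt3a* KO, 2 were higher in labelled *Dnmt3a* KO MEFs under GSK126, GSK126 gave 1 higher in WT and 1 higher and 1 lower in labelled *Dnmt3a* KO, and 2i-MEFs gave 1 higher and 1 lower. With a mean of at least 1 FPKM, 1 was higher in DMSO-treated MEFs (*Myocd* was lost). Counts that stayed within 1.5 times could still differ, such as 3 higher in DMSO-treated MEFs at 1.5-fold against 2. The smaller counts follow from fewer genes tested or the shifted centre. Of 132 list counts 83 stayed within 1.5 times with a pseudocount of 0.1 FPKM and 127 after centring. For heart against liver in WT centring subtracted a median of -0.13, which raised the log2 ratios. Depth limits members under about 1 FPKM, and the spread between animals or cultures was not measured.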
